A study of Salmo salar with 45 samples.

Results

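Among all genes measured in the distal intestine of 45 Atlantic salmon, 100 genes were selected because their level rose and fell from fish to fish with that of cd3e, a chain of the T-cell receptor complex. The rule took the 27857 genes with a mean of at least 1 CPM (the share of a fish's counted fragments given to a gene, scaled to a fixed total), subtracted from each log2 CPM the mean of the fish's diet, and ranked the genes by Pearson's r with cd3e over the 45 fish. It left out cd79b, a chain of the B-cell receptor complex, and every gene that correlated more closely with cd79b than with cd3e. The correlations with cd3e and with cd79b therefore chose the members and are given below as a description, with no test. The difference between diets was removed before the choice, and the diet comparisons were tested. They were not fully independent of the choice, since a fish that stands far above its diet, such as LP100 fish 37, enters both the correlation and the mean of its diet. Of the diet comparisons, only LP100 against CD was also fitted without that fish, and those values are given below.

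The fish were freshwater pre-smolts of the stock AquaGen Atlantic QLT-innOva SHIELD, fed for 61 days. There were 9 fish per diet. CD was the control diet, LP20, LP100 and LP500 were the same diet with 20, 100 and 500 mg Feed LP20™ per kg, a preparation of heat-killed Lactiplantibacillus plantarum L-137 (HK L-137), and MG held 2 g per kg of the β-glucan MacroGard. The fish came from 15 tanks, 3 per diet. The labels number the fish in runs of 3 consecutive numbers, 3 runs per diet, and do not say whether a run is a tank. P-values over fish that shared a tank measure the spread between these fish. The total count of a fish ranged from 9660750 to 22377591 (median 14634308), and neither cd3e (Pearson r = 0.083, permutation p = 0.586, Spearman rho = 0.057, permutation p = 0.713, adjusted p = 0.932 for both over 4 relations, two-sided) nor the mean of the members (Pearson r = 0.071, permutation p = 0.635, Spearman rho = 0.015, permutation p = 0.932, adjusted p = 0.932 for both) had a detectable relation with it. Without the 2 fish whose totals lay farthest from the median, the r of cd3e was -0.062 and that of the members -0.014.

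T cells recognise antigen through a receptor whose signal is passed into the cell by the CD3 chains, of which cd3e encodes epsilon. In mammals the kinase Lck phosphorylates these chains, and phospholipase C gamma 1, encoded by plcg1, then starts the calcium signal, while the co-receptor CD8, encoded in part by cd8a, marks cytotoxic T cells. Fish have no lymph nodes or Peyer's patches, and their intestinal T cells lie scattered in the epithelium and in the lamina propria. The samples were pieces of whole intestinal wall, so that a change in the number of T cells cannot be told apart from a change in RNA per cell.

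The level of cd3e varied 2.2-fold between the fish, from 17 to 37.4 CPM (186 to 554 fragments). Its gene lies on chromosome 20, from 54672272 to 54675144 on the plus strand of Ssal_v3.1. The lowest, median and highest levels were 17, 23.2 and 25.1 CPM in CD, 17.1, 20.7 and 35.9 in LP20, and 22.4, 25.7 and 37.4 in LP100. They were 19.2, 22.3 and 26.8 CPM in LP500 and 18.6, 22 and 28.2 in MG. The ranges of all diets overlapped. A single fish stood above the rest in LP20 (fish 56) and in LP100 (fish 37), and no other fish exceeded 28.2 CPM. The mean was 22.1 ± 2.74 CPM in CD (SD, n = 9), 22.5 ± 5.68 in LP20, 26.6 ± 4.44 in LP100, 22.4 ± 2.49 in LP500 and 22.5 ± 2.89 in MG. LP100 thus held the highest mean, and the other 4 means lay between 22.1 and 22.5 CPM.

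**Figure D1:**
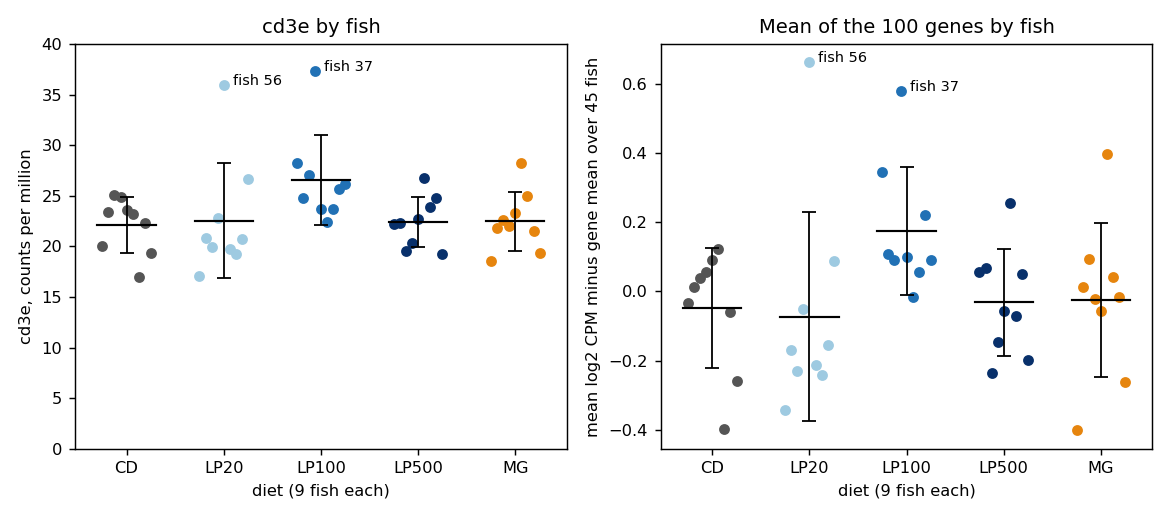
Level of cd3e in CPM (left) and the mean of the 100 genes, as log2 CPM minus each gene's mean over 45 fish (right), for each fish by diet. Points are fish, horizontal lines the mean of 9 fish and bars 1 SD. LP20 fish 56 (35.9 CPM, 0.66 on the log2 scale) and LP100 fish 37 (37.4 CPM, 0.58) stand above the other fish of their diets in both panels.

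The 100 members correlated with cd3e at r from 0.828 to 0.646, with a median of 0.702, where the median over all 27857 genes was 0.006. The threshold was no step in the data. The members at ranks 98 to 100, si:cabz01101003.1, LOC106564558 and abhd8b, had r of 0.647, 0.647 and 0.646, and the next 3 genes, LOC106563758, LOC106571433 and cd53, had 0.646, 0.644 and 0.644. cd53 encodes a tetraspanin of white blood cells in mammals. The members also correlated with each other, at a median r of 0.576 over all pairs (0.159 to 0.929), and the first principal component held 57.9% of their variance, against 4.8% in the second. They therefore do not count as 100 separate measurements. Their mean levels ranged from 3.05 to 102.8 CPM (median 13.3, against 9.85 over all genes), and the highest fish exceeded the lowest by 1.55- to 5.37-fold (median 2.61-fold).

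Of the 100 members, 81 lay at the position of a protein-coding RefSeq gene. Of these, 21 carried a name and 60 a LOC symbol, for which the reference used held no description. Of the LOC genes, 1, LOC100194878, has the synonym lck. Among the 19 others, 9 spanned a whole RefSeq gene each or several, with names in 4 cases: ENSSSAG00000066666 spanned ptprc, ENSSSAG00000006878 spanned gzma, ENSSSAG00000067924 spanned fli1 and ENSSSAG00000103627 spanned spr2h. ENSSSAG00000098580 (rank 77, r = 0.665, chromosome 9 from 48487853 to 48498878, 17.9 to 48.5 CPM) overlaps an antigen receptor constant region entry of RefSeq, LOC123744629, whose receptor the table does not name. The members lay on 26 chromosomes. There were 6 pairs of neighbours, and in 4 of them the members overlapped on opposite strands. Such a pair was ENSSSAG00000066666 and abhd8b (overlap 5959 bp, r between them 0.803), and another ENSSSAG00000120994 and LOC106602779 (7988 bp, r = 0.929). The fragments were counted by strand, yet 23 members shared more than 5% of their exon length with exons of the other strand, against 26.5% of all genes.

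Members that serve the T-cell receptor signal in mammals lay between ranks 14 and 72, while most measured genes of the T-cell signalling list were not members. Neither the gene spanning ptprc nor ptk2ba was matched to a T-cell list, and ptk2ba was singled out after its value was seen. The gene spanning ptprc, which encodes the phosphatase CD45 that activates Lck in mammals, was at rank 14 (r = 0.775). plcg1 followed at rank 38 (r = 0.722), cd8a at rank 39 (r = 0.719), lck at rank 61 (r = 0.684) and ptk2ba, an adhesion kinase activated through the T-cell receptor in mammals, at rank 72 (r = 0.667). Per length of transcript, the mean level of cd3e was 56.9 TPM (a level scaled by exon length), that of the gene spanning ptprc 40.2, of cd8a 23.9, of lck 11.3 and of plcg1 11.2 TPM. cd8a thus ran at a lower level than cd3e, and the levels of plcg1 and lck lay close to each other.

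The level of cd8a varied more between fish than that of cd3e, from 4.08 to 21.6 CPM over the 45 fish. Its lowest, median and highest levels were 4.08, 10.4 and 14.6 CPM in CD, 5.09, 8.79 and 17.6 in LP20, 5.23, 10.3 and 21.6 in LP100, 4.94, 10.1 and 12.8 in LP500, and 6.4, 8.95 and 16.1 in MG. The diets overlapped over most of their range, and the highest fish of LP20 and LP100 were again fish 56 and 37. For lck these levels were 6.24, 9.39 and 12.4 CPM in CD, 7.16, 8.68 and 14 in LP20, 9.01, 9.86 and 13.9 in LP100, 7.03, 9.3 and 13.9 in LP500, and 7.34, 9.54 and 11.5 in MG. The diets overlapped for lck too. The gene spanning ptprc had 81.8, 97.2 and 121 CPM in CD, 81.3, 91.5 and 161 in LP20, 103.1, 114 and 133 in LP100, 83.4, 100.7 and 122 in LP500, and 86.2, 97.2 and 124 in MG. Here the lowest LP100 fish lay above the median of each other diet, and the highest fish of all was fish 56.

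Of the list of T-cell transcription factors, id3 and satb1b were members. id3, which in mammals encodes an inhibitor of the E proteins that direct lymphocyte development, was at rank 10 (r = 0.789) and ranged from 8.37 to 23.8 CPM. satb1b, a relative of the mammalian chromatin organiser of thymocytes, was at rank 97 (r = 0.649). Among the other named members, singled out after their values were seen, the gene spanning fli1, an ETS factor of blood cells and endothelium in mammals, was at rank 49 (r = 0.703) and arid1aa, a subunit of the SWI/SNF remodelling complex, at rank 90 (r = 0.653). Genes of the actin cytoskeleton and of cell adhesion were lpxn (rank 12, r = 0.781), arc1b (rank 44, r = 0.709), a subunit of the Arp2/3 complex that had the highest level of the named members at 87.2 TPM, and the formin fmnl3 (rank 83, r = 0.659). Kinases and phosphatases without a role particular to T cells were rps6ka1 (rank 13, r = 0.777), stk17al (rank 53, r = 0.701) and ptn12 (rank 42, r = 0.714). The gene spanning gzma, which in mammals encodes granzyme A, a protease of cytotoxic cells, was at rank 29 (r = 0.739), though 46.4% of its exon length was shared with exons of the opposite strand.

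The members closest to cd3e were mostly genes with a LOC symbol. The first 5 ranks were held by LOC106582667 (r = 0.828), LOC106613721 (0.82), LOC101448041 (0.814), LOC106612067 (0.811) and LOC106563456 (0.8). LOC101448041 lies on chromosome 19 from 61391755 to 61415917 and overlaps the end of cd79b, which runs on the opposite strand from 61414832 to 61425268. slc25a27, a mitochondrial carrier, held rank 6 (r = 0.8), and ranks 7 to 9 were LOC106604746, ENSSSAG00000073493 and LOC106611681, at r from 0.797 to 0.79. Ranks 11 and 15 to 20 were LOC106571744, LOC106583491, LOC106562362, si:ch73-40i7.2, LOC106613845, LOC106594609 and LOC106588537, at r from 0.784 to 0.765. These genes had mean levels from 6.07 to 64.3 CPM.

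**Figure D2:**
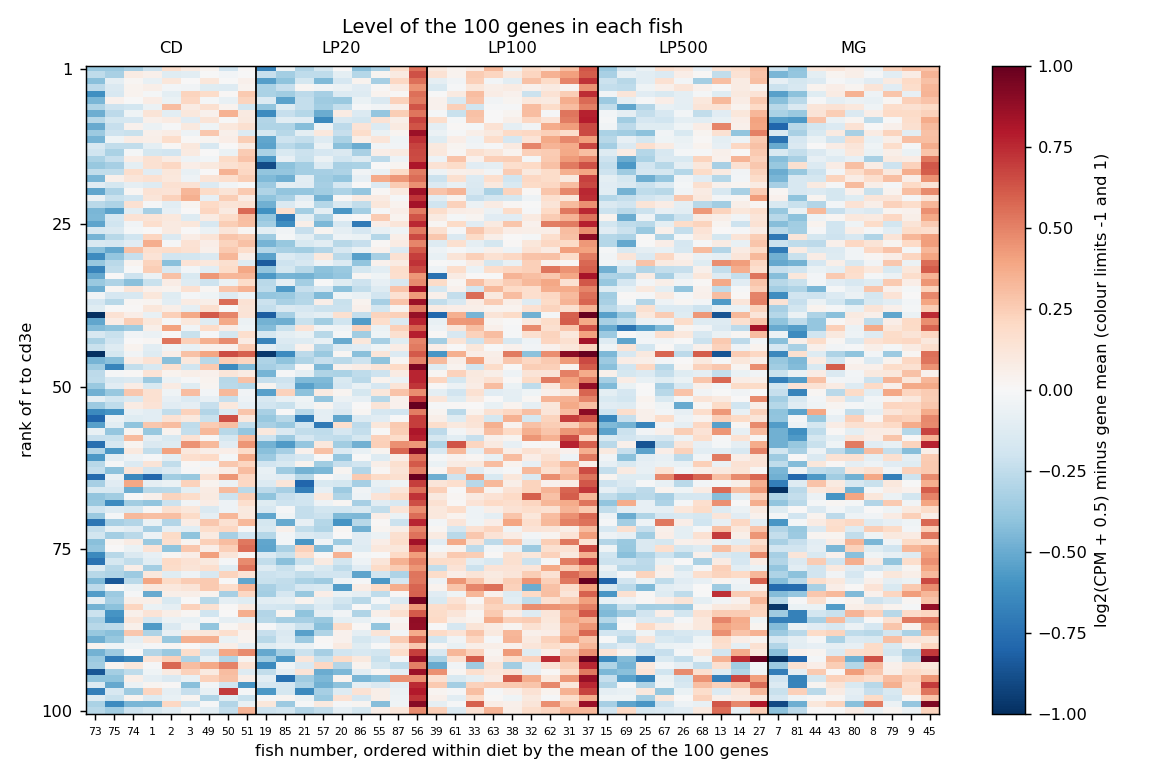
Level of the 100 genes (rows, by rank of r with cd3e) in each of 45 fish (columns, grouped by diet and ordered by the mean of the 100 genes), as log2(CPM + 0.5) minus the gene's mean, with colour limits at -1 and 1. The columns of LP20 fish 56 and LP100 fish 37 are high over nearly all rows.

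Many T-cell genes matched by symbol or synonym were not among the members. The lists of T-cell signalling, surface and cytotoxic genes had 34, 20 and 13 entries, for which 17, 3 and 2 genes were matched. T-cell genes known only by a LOC symbol, or with no match, could not be looked up and may be among the members. The list of T-cell signalling genes had 17 genes at a RefSeq position, of which 16 reached a mean of 1 CPM and 2 were members. The lists of T-cell transcription factors (8 measured), surface genes (3 measured), homing genes (4 measured) and cytotoxic genes (1 measured) gave 2, 1, 0 and 0 members. cd4, the co-receptor of helper T cells in mammals, had a mean of 14.8 CPM and an r of -0.003 with cd3e, where cd8a had 0.719. il2rb, a chain of the interleukin 2 receptor, reached 0.556, sh2d1ab, an adapter of T and natural killer cells in mammals, 0.6, and arhgap15 0.608. gata3 and tbx21, which in mammals direct helper T cells, had r of 0.142 and 0.412 at mean levels of 1.23 and 1.92 CPM. Counting error is large at such levels: at the lowest total count, 1 CPM was 9.66 fragments, with a counting error of 32.2%. Low r was also seen at higher levels, with 0.134 for rorca (20.6 CPM), -0.031 for stat4 (78.3 CPM) and 0.125 for malt1 (27 CPM). Other genes of these lists had a higher r, among them lcp2a (0.637), bcl11ba (0.63), ikzf1 (0.567) and foxp3 (0.538). No other CD3 chain was matched by symbol.

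The B-cell gene cd79b was the closest of the genes that the rule kept out. Its r with cd3e was 0.832, above that of the first member. There were 135 genes with an r at least that of the last member, and 35 of them were left out because they followed cd79b more closely. Among those were sash3, an adapter of lymphocytes in mammals (r = 0.812 with cd3e and 0.814 with cd79b), jak3, the kinase of the common gamma chain receptors (0.679 and 0.804), vav3b (0.686 and 0.749) and tbc1d10c (0.725 and 0.769). The members themselves correlated with cd79b at r from 0.456 to 0.777 (median 0.642). In 19 members the r with cd3e and the r with cd79b differed by less than 0.02, and in 30 by more than 0.1. The members farthest from cd79b included ptk2ba (0.456), arid1aa (0.475) and abhd8b (0.499). The exclusion therefore split a set of genes that followed both lymphocyte genes, and 40.2% of the exon length of cd79b itself was shared with exons of the other strand.

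**Figure D3:**
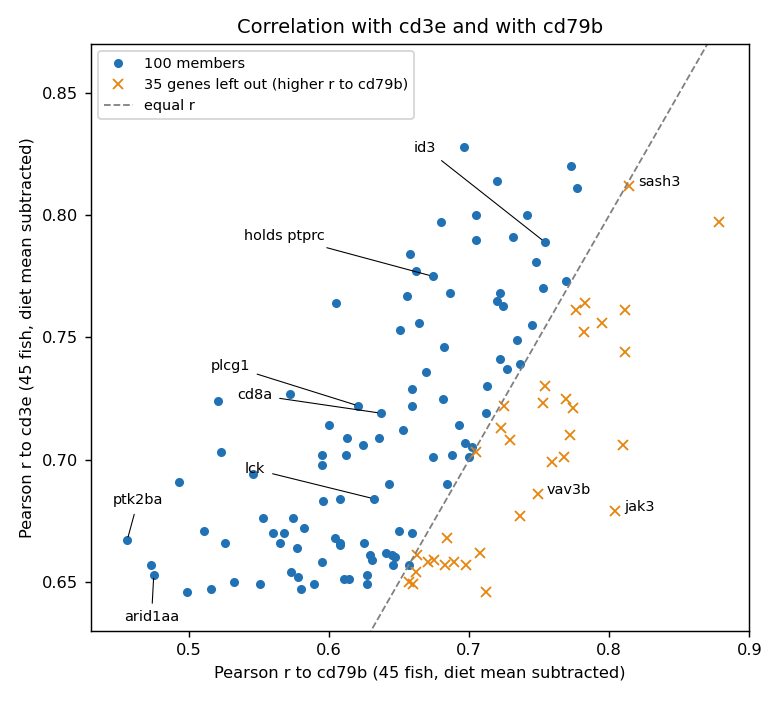
Pearson's r with cd3e (vertical) against r with cd79b (horizontal), both over 45 fish after subtracting the diet mean, for the 100 members (circles) and the 35 genes left out for a higher r with cd79b (crosses). The dashed line marks equal r, and many members lie close to it, while ptk2ba (0.456 with cd79b) and arid1aa (0.475) lie farthest to the left.

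Part of the correlation came from LP20 fish 56 and LP100 fish 37. Of the 100 members, 52 had their highest level of all fish in fish 56 and 34 in fish 37. Fish 56 exceeded the median of the other 8 LP20 fish by 1.78-fold in the median member (1.24- to 2.33-fold), and 99 members were above all 8. Fish 37 exceeded the other 8 LP100 fish by 1.35-fold in the median member (0.966- to 2.2-fold), with 81 above all 8. At the low end no fish stood out in this way, since MG fish 7 held the lowest level for 18 members, LP20 fish 19 for 17 and CD fish 73 for 16.

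When both fish were left out, which was decided after their values were seen, the median r of the members with cd3e was 0.589 (0.365 to 0.746), and the median over all genes was 0.007. Of the 100 members, 57 were again among the 100 chosen over 43 fish, 12 had an r under 0.5 and 11 correlated more closely with cd79b than with cd3e. The first principal component then held 44.7% of the variance. LOC106582667 kept the highest r at 0.746. The r of id3 was then 0.695, that of cd8a 0.626, of plcg1 0.549, of lck 0.537, of satb1b 0.465 and of fmnl3 0.365.

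**Figure D4:**
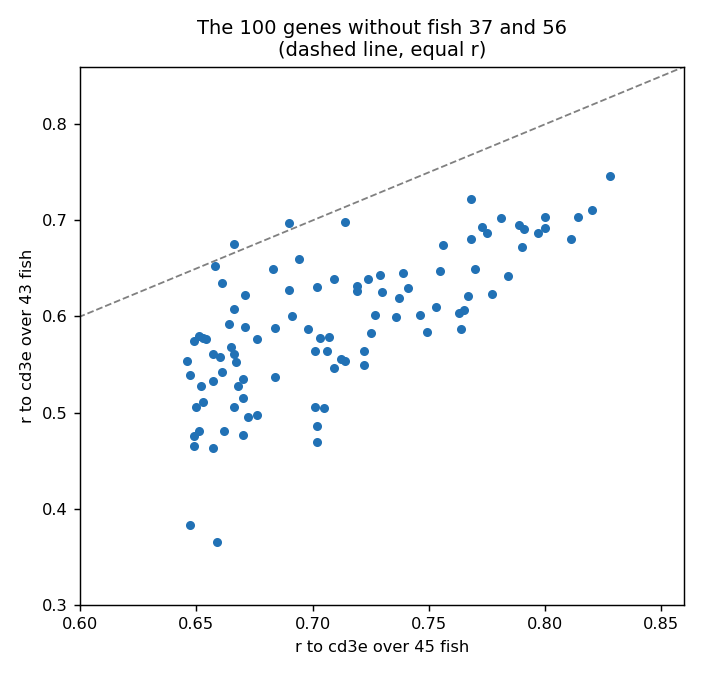
Pearson's r of each of the 100 genes with cd3e over all 45 fish (horizontal) and over the 43 fish without fish 37 and 56 (vertical), with the diet mean subtracted in both. Nearly all genes lie below the dashed line of equal r, and the median falls from 0.702 to 0.589.

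The same choice was also made with a whole diet left out, and the genes so chosen were then read in the 9 fish that had no part in it. Their median r with cd3e in those fish was 0.48 in CD, 0.68 in LP20, 0.62 in LP100, 0.44 in LP500 and 0.61 in MG, where the medians over all genes lay between -0.04 and 0.02. The genes chosen without LP20 shared 49 of 100 with the members, and those chosen without CD, LP100, LP500 or MG shared 69 to 76. The left-out fish of LP20 and LP100 included fish 56 and fish 37, and the values of 0.68 and 0.62 were not computed without them. CD, LP500 and MG do not hold these fish, and their medians were 0.48, 0.44 and 0.61. A positive median r was thus seen in fish that the rule had not used, as a description with no test. The identity of the genes varied with the fish.

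The levels of other cell type lists differed between the fish with high levels of the members. The summed level of 3 B-cell genes (cd79b, blnk and btk) ranged from 21 to 46.1 CPM, with fish 56 highest and fish 37 at rank 3. The 3 antigen presentation genes reached their highest summed level in fish 56 (1880 CPM, median of all fish 828) but not in fish 37 (802 CPM). Fish 37 was at rank 35 of the 45 fish for the 2 macrophage genes and at rank 24 for the 4 granulocyte genes. For the 4 endothelial genes it was at rank 1 (42.1 CPM, median of all fish 16.1) and for the 4 smooth muscle genes at rank 8 (1050 CPM, median 586). Fish 56 was at ranks 4 and 21 for these 2 lists. The 4 enterocyte genes had a summed level of 3510 CPM in fish 56, the lowest of the 45 fish (highest 8270), and 5610 in fish 37. The goblet cell gene agr2 was also lowest in fish 56, at 166 CPM (highest 758). As a description over 45 fish with the diet mean subtracted, the mean of the members correlated with the B-cell list, which holds cd79b that the rule used, at r = 0.76, with agr2 at -0.61, with the enterocyte list at -0.51, with 5 genes of dividing cells at -0.37, with 2 macrophage genes at 0.39 and with 4 smooth muscle genes at 0.27. Over 43 fish these were 0.65, -0.64, -0.33, -0.53, 0.15 and 0.3. Of the B-cell list, cd79b alone had an r of 0.84 with the mean of the members, and the r of blnk and btk with cd3e were 0.228 and 0.312. Of the enterocyte list, cubn, lrp2b and cdx1b had r of -0.372, -0.471 and -0.21 with cd3e, but slc5a1 had 0.259. Most of that list's summed level came from cubn and lrp2b (means of 3393 and 2818 CPM). All values of a fish come from a single library and share its total, and the part of the tissue's make-up in the members' levels was not tested.

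The diets were compared with edgeR's quasi-likelihood test over all 45 fish, with Benjamini-Hochberg adjustment over the genes tested. All 100 members were among the 31729 genes tested. In LP100 against CD, the question being whether this inclusion level changed the genes, 3 members rose and none fell at an adjusted p under 0.05, that is 3% and 0%. The share of all genes that rose was 3.6% and the share that fell 0.473%, so that in this fit the members were called about as often as any gene. DESeq2, fitted without edgeR's filter on low counts, called 6 members up (1789 of all genes) over all 45 fish and 22 (2700 of all genes) over the 18 fish compared. The number of genes that DESeq2 tested was not counted, so here and below its calls have no share of all genes beside them. The log2 fold change was above 0 in 96 of the 100 members, against 46.9% of all genes. Its median was 0.22 over the members (-0.175 to 0.59), against -0.015 over all genes. At an unadjusted p under 0.05, 36 members were higher and 0 lower, where 11.8% of all genes were higher and 6.72% lower. Since the members vary together, these counts describe a single shared shift more than separate changes. cd3e itself had a log2 fold change of 0.26 ± 0.105 (SE) and an adjusted p of 0.146, and it did not pass the test.

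The 3 members that rose carry LOC symbols. LOC106573028 (rank 34, chromosome 16) had lowest, median and highest levels of 9.73, 11.3 and 15.1 CPM in CD and 13.4, 15.9 and 20.6 in LP100, a log2 fold change of 0.44 ± 0.107 (SE) with an adjusted p of 0.0222 by edgeR. LOC106571892 (rank 68, chromosome 15) had 8.3, 11.2 and 14.8 CPM in CD and 13.2, 15.1 and 19.2 in LP100, a log2 fold change of 0.44 ± 0.125 with an adjusted p of 0.0376 by edgeR. LOC106613721 (rank 2, chromosome 10) had 45.5, 56 and 60.5 CPM in CD and 58.4, 66.4 and 87 in LP100, a log2 fold change of 0.34 ± 0.104 with an adjusted p of 0.049 by edgeR. In all of them the lowest LP100 fish was above the median of CD, and the ranges overlapped. Without LP100 fish 37, without CD fish 3, 50 or 74, or without CD fish 1 to 3 together, 0 members were called. The count over all genes, 1292 with all fish, was then 104 without fish 37, 84 and 77 without CD fish 50 and 74, and 0 without CD fish 3 or CD fish 1 to 3. The median log2 fold change of the members was 0.16 without fish 37, with 92 above 0, and 0.24 without CD fish 1 to 3. When the rule was applied to the 27 fish of LP20, LP500 and MG alone, which was added after the values were seen, 64 of the 100 genes chosen were members. In LP100 against CD, 4 of those 100 genes rose and 0 fell, with 94 above 0 and a median log2 fold change of 0.19.

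The named genes of the T-cell receptor signal did not pass the test in LP100 against CD. Their log2 fold changes were 0.24 for the gene spanning ptprc (adjusted p = 0.131 by edgeR), 0.12 for lck (0.639), 0.10 for plcg1 (0.539) and 0.03 for cd8a (0.968). id3 had 0.22 (0.392), satb1b 0.24 (0.452) and the gene spanning gzma 0.05 (0.877). abhd8b came nearest among the named members, with 0.31 (0.0657).

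Of the cell type lists, the endothelial list alone had genes that passed in LP100 against CD. Of 4 endothelial genes, 2 rose (pecam1a by 1.64 with an adjusted p of 0.0348, and plvapb by 1.57 with an adjusted p of 0.0222, log2, edgeR), and the summed level of the 4 ranged from 4.07 to 16.1 CPM in CD and from 5.05 to 42.1 in LP100. The highest LP100 value was that of fish 37. Without CD fish 3, or without CD fish 1 to 3, 0 of all genes were called, these included. The 4 smooth muscle genes all had positive log2 fold changes (median 0.91) without passing the test, and their summed level ranged from 281 to 760 CPM in CD and from 343 to 1080 in LP100. The 4 enterocyte genes were all lower by values that did not pass (median -0.06), and ranged from 5470 to 7800 CPM in CD and from 5350 to 7310 in LP100. The 3 B-cell genes had positive log2 fold changes (median 0.16) that did not pass, with 21 to 33.9 CPM in CD and 29.4 to 39.1 in LP100. The median log2 fold changes of the endothelial and smooth muscle lists were 1.775 and 0.993 in LP500 against CD, where 4 endothelial and 2 smooth muscle genes rose. They were 1.235 and 0.788 in LP20 against CD, where none passed. The part of the tissue's make-up in the LP100 values was not tested. A fit with a covariate is given as a description. It cannot separate that part, since the enterocyte list in it correlated with the mean of the members (r = -0.51). When the difference between the smooth muscle and the enterocyte lists was added to the fit, 0 members and 0 of all genes were called, and the median of the members was 0.12, with 88 above 0. The same covariate gave medians of -0.12 in LP500 against CD, with 15 members above 0, and -0.09 in LP20 against CD, with 16 above 0.

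**Figure D5:**
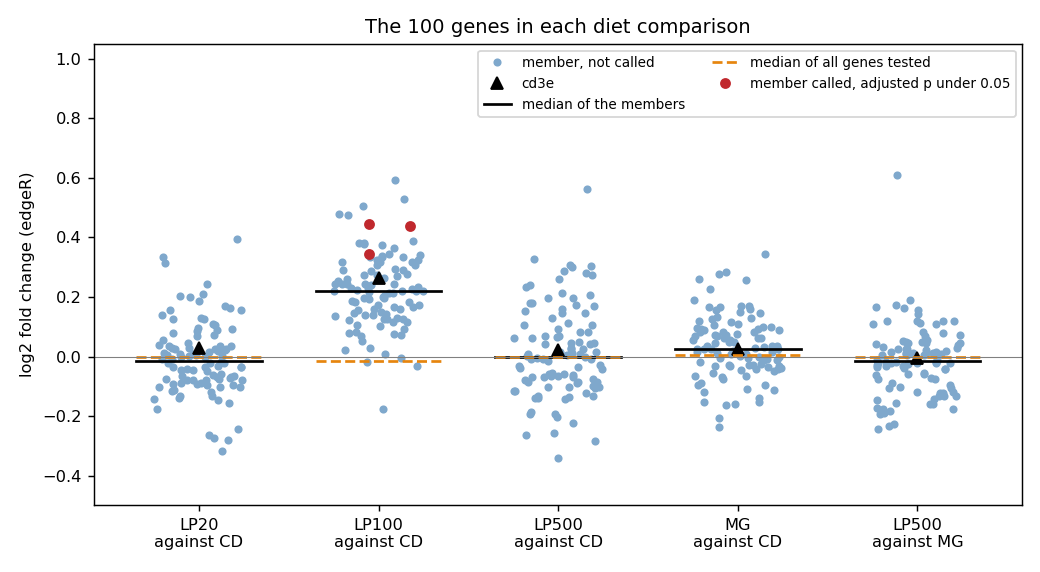
Log2 fold change of the 100 genes by edgeR in 5 diet comparisons. Circles are genes, the 3 red circles those called at an adjusted p under 0.05, triangles cd3e, solid lines the median of the 100 genes and dashed lines the median of all genes tested. The members lie above 0 in LP100 against CD (median 0.22) and around 0 in the other comparisons.

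In the other comparisons with CD no member was called. For LP500 against CD, 7.45% of all genes rose and 3.21% fell, and 0 members passed, with 4 members higher and 2 lower at an unadjusted p under 0.05, where 14% and 10.9% of all genes were. The members' median log2 fold change was 0.00 (-0.34 to 0.56), with 50 above 0 (49.9% of all genes), and cd3e had 0.02 ± 0.105 (SE). The nearest members were LOC106586260 (0.56, adjusted p = 0.0546 by edgeR), LOC106602779 (-0.34, adjusted p = 0.104) and LOC106583670 (-0.28, adjusted p = 0.118). With DESeq2, fitted over all 45 fish or over the 18 fish compared, 1 member passed in LP500 against CD. Of all genes, 2941 rose and 1194 fell in the fit over 45 fish, and 2688 rose and 1016 fell over 18 fish. With all fish, LP500 was the diet with the most genes called against CD. That count depended on CD fish 1 to 3: without them, 3 of all genes rose and 0 fell by edgeR. With the covariate of the smooth muscle and enterocyte lists, 1 rose and 0 fell. In both fits 0 members were called. The comparisons with CD share the 9 CD fish.

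For LP20 against CD, 0% of all genes rose or fell by edgeR, and 0 members passed. There were 3 members higher and 2 lower at an unadjusted p under 0.05, where 8.75% and 4.13% of all genes were. The members' median was -0.01, cd3e had 0.03 ± 0.105 (SE), and the members with the smallest p were LOC106583670 (-0.26, adjusted p = 0.327 by edgeR), ENSSSAG00000120994 (-0.28, 0.37) and si:cabz01101003.1 (0.19, 0.373). By fish, the median of the members' mean was -0.17 in LP20 and 0.012 in CD (log2), while LP20 fish 56 reached 0.661. LP20 against CD was not fitted without fish 56. For MG against CD, 0% rose or fell, 0 members passed and 1 was higher at an unadjusted p under 0.05, as were 5.42% of all genes. The median was 0.03, and the nearest members were LOC106580650 (0.34, adjusted p = 0.679 by edgeR), LOC106565275 (0.26, 0.711) and LOC106560984 (0.28, 0.747). For LP500 against MG, 0% rose or fell and 0 members passed, with 1 higher at an unadjusted p under 0.05 (6% of all genes), a median of -0.02 and LOC106586260 (0.61, 0.286), LOC106613845 (-0.24, 0.486) and LOC106592135 (0.17, 0.492) nearest. DESeq2 called 0 members in each of these comparisons, over all 45 fish and over the 18 fish compared. The count over all genes depended on the fit. In LP20 against CD, DESeq2 called 162 genes up and 20 down over 45 fish, and 648 up and 159 down over 18 fish. For MG against CD it called 0 genes over 45 fish, and 2 up and 0 down over 18 fish. For LP500 against MG these counts were 10 up and 27 down over 45 fish, and 13 up and 23 down over 18 fish.

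Over the inclusion levels CD, LP20, LP100 and LP500, taken as equal steps, 7.33% of 31213 genes had a rising slope and 3.38% a falling slope. None of the members passed, 11 had a positive and 1 a negative slope at an unadjusted p under 0.05, where 14.1% and 11.3% of all genes had, and the median slope was 0.02 log2 per step. The smallest p-values were those of LOC106592135 (0.10 per step, adjusted p = 0.0711 by edgeR), LOC106586260 (0.16, 0.0738) and LOC106571892 (0.11, 0.0751). cd3e had a slope of 0.03 ± 0.037 (SE). The shares of all genes with a called slope depended on CD fish 1 to 3: without them, 0 genes were called. With the covariate of the smooth muscle and enterocyte lists, 1 rose and 0 fell. The means of the members by diet had no order along the inclusion level, at -0.05 in CD, -0.07 in LP20, 0.175 in LP100 and -0.03 in LP500 on the log2 scale, with SDs of 0.17, 0.3, 0.18 and 0.16 and n = 9 each. The medians of the fish had no such order either, at 0.012, -0.17, 0.099 and -0.056, and LP100 lay closer to CD by median than by mean.

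After the level of LP100 had been seen, LP100 was also compared with the other diets. Against LP20, 97 members were higher in LP100 with a median of 0.23, against MG 99 with a median of 0.19, and in LP500 against LP100 3 were higher, with a median of -0.20. Of all genes, 49.6%, 48.3% and 50.6% were higher in these comparisons. No member and 0% of all genes passed the adjusted test in any of the 3 comparisons. At an unadjusted p under 0.05, 42 members were higher in LP100 than in LP20, 21 higher than in MG, and 28 lower in LP500 than in LP100. The shares of all genes were 2.89%, 2.73% and 4.96%. cd3e had log2 fold changes of 0.24 ± 0.105 (SE) against LP20 and 0.24 ± 0.105 against MG, and -0.24 ± 0.105 in LP500 against LP100, with adjusted p of 0.705, 0.776 and 0.352 by edgeR. The higher level in LP100 than in the other diets was therefore not shown for any single member, and these comparisons share the 9 LP100 fish.

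The runs of fish numbers gave a coarser view of the same levels. The mean of the members was 0.18, 0.22 and 0.12 (log2) in the 3 runs of LP100, from -0.24 to 0.09 in the runs of CD, from -0.25 to 0.13 in LP20, from -0.07 to 0.02 in LP500 and from -0.10 to 0.11 in MG. The run of LP20 that reached 0.13 held fish 56, and it overlapped the LP100 runs. Differences between run means held 25.8% of the sum of squares of cd3e within diets and 27.3% of that of the members' mean. The median over all genes was 24.7%. Means of runs of 3 fish differ even where runs have no effect, so that a share of this size does not show an effect of runs, which was not tested. With counts summed per run, 0 members were called in LP100 against CD, 12 of all genes rose and 3 fell, and the median of the members was 0.205.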

How the data were processed

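Distal intestine RNA from 45 fish was sequenced per fish. The deposited counts are whole fragments per gene, made by the authors with featureCounts v1.5.1 by strand on Ssal_v3.1 within nf-core rnaseq 3.3 (69389 genes, no normalization). Extraction was stated as Qiazol in the methods and as RNeasy columns in the labels, with a RIN of at least 8 or 7. The deposited other column, exon length, was used for TPM. Symbols came from RefSeq by position (overlap of at least 0.5 of the joint span, 30322 genes). The median overlap was 0.936, but it was 0.517 for cd79b, 0.562 for id3 and 0.651 for cd8a, so these names are less certain. With the RefSeq positions shifted by 100000 bp, 4728 genes were still matched. Counts were scaled with TMM, log2 CPM used a prior count of 2, and diets were tested with edgeR (filterByExpr, diet as the only factor, threshold 0.05). DESeq2 was an alternative. The scripts were tested on simulated data. Members and lists were chosen with earlier results of these data known. Named are cd3e, the first 20 members, members on the T-cell lists, the last 3 members, the next 3 genes and, per comparison, the called members (if 0, the 3 of smallest p). Other named members and LP100 against LP20, MG and LP500 were added after values were seen.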

Additional observations from a re-analysis of the deposited data

Results flagged for a closer look

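In diets of 9 fish, a fish was singled out when its gap to the next fish took a larger share of the diet's range than Dixon's critical value, which chance gives in about 1 in 20 groups. Of 65 groups (12 genes and the mean of the members in 5 diets), 16 were singled out, 11 of them by LP20 fish 56 and 3 by LP100 fish 37. The genes were chosen for varying together over these same fish, so that the groups are not independent and their number cannot be read against chance. In fish 56 the mean of the members was 0.661 on the log2 scale, the gene spanning ptprc (ENSSSAG00000066666) had 161 CPM, cd8a 17.6, lck (LOC100194878) 14, plcg1 52.2, the gene spanning gzma (ENSSSAG00000006878) 18.4, id3 23.3, satb1b 10.3, LOC106573028 18.5, LOC106571892 20.8 and LOC106613721 89 CPM. In fish 37 cd3e had 37.4 CPM, LOC106582667 18 and satb1b 9.44 CPM. LP500 fish 13 had 13.9 CPM of lck, and MG fish 45 had 16.1 CPM of cd8a. The median correlation of fish 56 with the other fish over all genes was 0.917, the next to lowest of the 45 (lowest 0.91, median 0.948), and that of fish 37 was 0.941.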

How the results depend on the processing

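The choice of members depended on single fish and on the measure. Of the 100 members, 66 were chosen again with Spearman's correlation, 67 with the mean of each label run subtracted, 49 without LP20, 64 without CD and LP100 (added after seeing the data), 57 without the 2 fish highest in cd3e (added after seeing the data), 86 without TMM factors and 97 to 100 with another prior count, CPM minimum or scaling. Leaving out each fish in turn kept 63 (LP20 fish 56) to 97. In LP100 against CD, members called were 3 with relative log expression factors, 1 without a filter on low counts, and 0 with counts summed per label run, with the tissue covariate or without label run 1 of CD. DESeq2 called 6 over all 45 fish (of all genes 1789 up and 279 down) and 22 over the 18 fish compared (2700 up and 889 down). Leaving out each fish of CD and LP100 in turn gave 0 to 9 called members (9 without LP100 fish 61) and a median log2 fold change of 0.16 to 0.26. In LP500 against CD, DESeq2 called 1 under both fits (of all genes 2941 up and 1194 down over 45 fish, 2688 up and 1016 down over 18). No other count of called members moved from 0. No paired analysis was possible because fish numbers differ between diets.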
